A study of Homo sapiens with 6 samples.

Results

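Transcripts of 39 genes that encode integrins or proteins of focal adhesions were followed in A375, an established human melanoma line with a mutant BRAF gene. The genes are 12 integrin alpha subunits, 8 beta subunits and 19 cytoplasmic proteins, chosen by name from a count table of 58721 genes, in which each of the 39 has a row. The 3 control libraries carried a guide RNA against mCherry, a fluorescent protein gene that human cells lack, and are labelled WT for genotype. The 3 knockout libraries carried a guide RNA against SOX10, which encodes a transcription factor of melanocytes and their precursors. All 6 came from cells kept in DMEM with 10% fetal bovine serum. The sources used here do not give whether the knockout cells are a pool or a clone, or where in SOX10 the guide cuts. The labels do not say that replicates are separate cultures, so p-values measure the spread between these libraries only, which may be technical.

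Integrins are receptors made of 1 alpha and 1 beta subunit that bind matrix proteins outside the cell. The alpha subunit largely sets the ligand, such as collagen, laminin or proteins with an RGD motif, and most alpha subunits pair with ITGB1. Inside the cell, talins and kindlins bind the beta tail and switch the receptor on, and ILK, PINCH and parvin proteins, paxillin, FAK, vinculin, zyxin, filamin and tensins connect it to kinases and to actin. Melanoma cells are known for high levels of the alphaV beta3 integrin when they invade.

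Gene counts summed to between 70075002 and 78148565 per library, and 3 counts, taken as the floor, came to at most 0.0417 CPM (counts scaled by library totals with TMM factors). Such floors cover counting error only. SOX10 itself (edgeR quasi-likelihood test, as for every adjusted p below, with Benjamini-Hochberg adjustment over 19263 tested genes) stood at 241, 237 and 223 CPM in control replicates 1, 2 and 3 and at 47.1, 47.7 and 41.4 CPM in knockout replicates 1, 2 and 3. It fell by 2.36 on the log2 scale (SE 0.08, adjusted p = 1.84e-07), while the exact two-sided permutation test, with 20 possible assignments, cannot go below the p = 0.1 it gave. Of the melanocyte markers, MITF had group means of 57.5 CPM (control) and 138 CPM (knockout), whereas PMEL, MLANA, TYR and TYRP1 were all below 1 CPM in both groups. S100B fell from 32.8 to 1.28 CPM (adjusted p = 1.17e-07) and DCT from 1.62 to 0.0657 CPM (adjusted p = 5.45e-06), so that of 7 tested markers, SOX10 included, 2 rose and 3 fell. Across all tested genes 14.0% were higher, 14.0% lower and 28.0% called in either direction at an adjusted p of 0.05. Over all genes 2702 were lower, and 1794 when knockout replicate 2 was left out.

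Of the 39 genes, 38 passed the filter on low counts; ITGB6 did not. Among the 38, 16 were higher and 8 lower in knockout than in control libraries, and 14 missed the threshold. So 24 of the 38 were called, against 5396 of all 19263 tested genes (28.0%). In 25 of the 38 the groups did not overlap, against 8009 of all 19263 tested genes (41.6%). A change of at least 2-fold was called in 10 of the 38, against 2084 of all 19263 tested genes (10.8%). The median log2 fold change of the 38 was 0.09, and that of all tested genes was -0.02. The median size without regard to sign was 0.65 for the 38 and 0.21 for all tested genes. Of the integrin subunits 16 of 19 tested were called, and of the cytoplasmic proteins 8 of 19.  A level measured in bulk RNA cannot tell fewer cells of a kind from less RNA per cell.

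**Figure D1:**
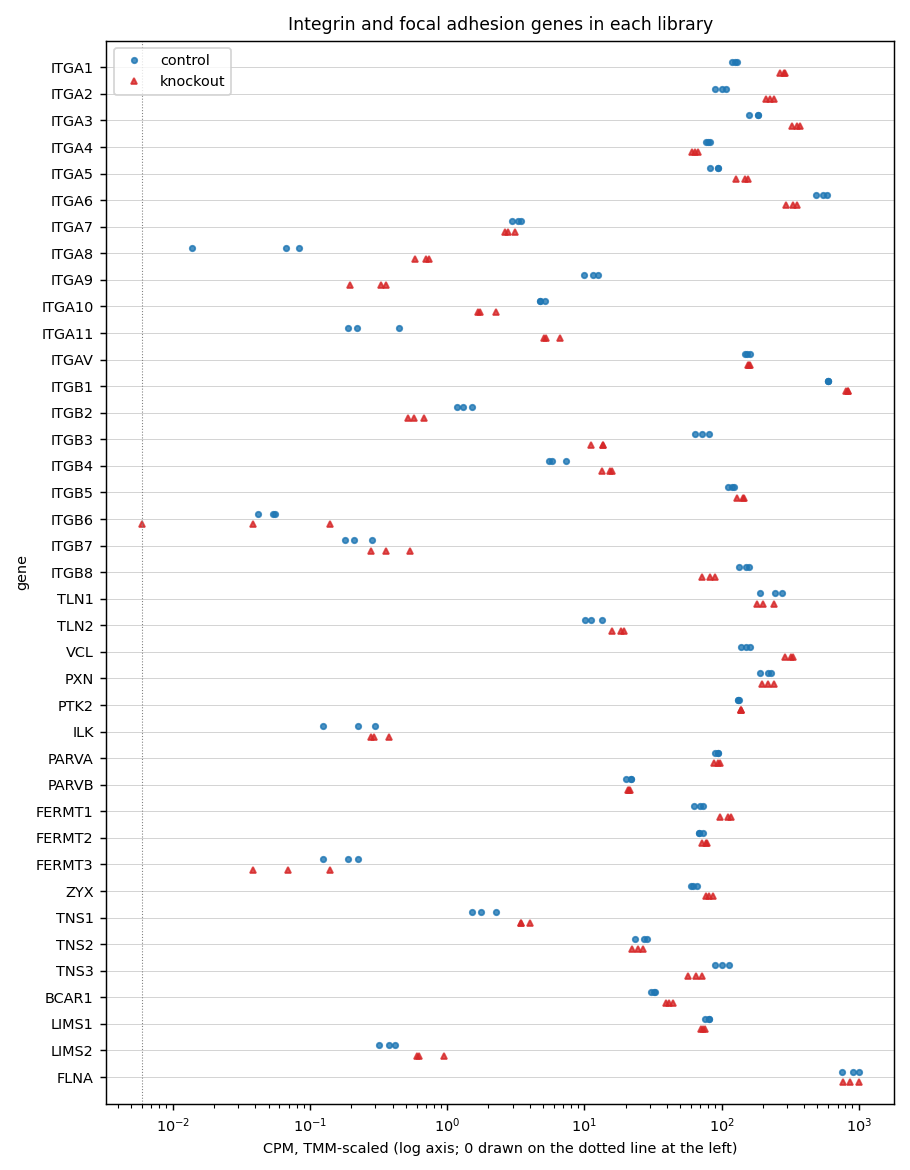
CPM (log axis, TMM-scaled) of the 39 genes in each of the 3 control (circles) and 3 knockout (triangles) libraries, with a value of 0 drawn on the dotted line. ITGA9 and ITGB3 lie farther left in all knockout libraries and ITGA11 farther right, while the FLNA, PXN and PARVA points of the groups overlap.

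Promoter sequence was taken from a set of RefSeq promoters on GRCh38.p14, which held 30 of the 39 genes. ITGA3, ITGA7, ITGA9, ITGB2, ITGB3, ITGB4, PTK2, PARVA and FERMT1 had no entry in the set used here. The promoters of 5 genes that rose are shown, each trimmed so that it overlaps no exon of a gene model on its strand. They are the neighbours ITGA1 and ITGA2, the collagen receptor ITGA11 with the largest increase of the 39, the shared partner ITGB1 and the actin linker VCL. Capitals mark GGAATG, a TEAD motif, and none of the other motifs searched occurs in them.
ITGA1 (chr5:52787666-52787895, plus strand): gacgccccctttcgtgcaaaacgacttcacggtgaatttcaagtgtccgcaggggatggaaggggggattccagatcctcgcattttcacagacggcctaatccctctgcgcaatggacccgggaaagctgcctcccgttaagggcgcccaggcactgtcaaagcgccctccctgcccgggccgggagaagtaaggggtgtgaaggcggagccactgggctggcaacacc
ITGA2 (chr5:52989102-52989325, plus strand): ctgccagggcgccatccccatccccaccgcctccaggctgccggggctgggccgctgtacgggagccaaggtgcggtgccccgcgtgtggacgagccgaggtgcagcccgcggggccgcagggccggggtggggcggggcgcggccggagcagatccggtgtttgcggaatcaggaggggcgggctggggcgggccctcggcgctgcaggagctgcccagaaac
ITGA11 (chr15:68432164-68432413, minus strand): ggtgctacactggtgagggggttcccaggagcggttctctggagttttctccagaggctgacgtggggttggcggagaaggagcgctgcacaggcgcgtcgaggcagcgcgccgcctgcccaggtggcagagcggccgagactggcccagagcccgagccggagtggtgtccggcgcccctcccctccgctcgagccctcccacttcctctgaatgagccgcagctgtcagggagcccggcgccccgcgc
ITGB1 (chr10:32958233-32958480, minus strand): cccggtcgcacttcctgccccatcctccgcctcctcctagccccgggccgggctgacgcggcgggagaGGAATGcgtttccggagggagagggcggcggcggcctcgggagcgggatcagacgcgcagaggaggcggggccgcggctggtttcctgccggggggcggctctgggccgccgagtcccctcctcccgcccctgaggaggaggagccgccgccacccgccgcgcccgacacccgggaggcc
VCL (chr10:73997866-73998113, plus strand): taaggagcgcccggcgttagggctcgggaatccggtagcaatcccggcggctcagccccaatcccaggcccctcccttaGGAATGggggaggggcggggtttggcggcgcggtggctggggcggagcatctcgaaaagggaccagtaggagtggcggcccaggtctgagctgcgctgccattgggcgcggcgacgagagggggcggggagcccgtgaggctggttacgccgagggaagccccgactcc
On both strands of the 250 bases before each start, GGAATG was in 11.9% of 35116 promoters of all genes and in 7 of the 56 promoters listed for the 30 genes (12.5%). The SOX motif ACAAAG was in 13.7% of all promoters and in 5 of the 56, the SOX motif ACAATG in 9.29% and in 2 of the 56, and the AP-1 motif TGANTCA in 6.57% and in 3 of the 56. Some of the 56 belong to the same gene, and a match of letters in a short window is a description only. ACAAAG and ACAATG differ in the letter before their final G, so 1 position cannot match both. The ITGB1 and VCL windows lie inside longer GENCODE models of those genes, upstream of the RefSeq start.

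Every one of the 4 collagen-binding alpha subunits changed, 3 upward and 1 downward, against 14.0% of all tested genes called in each direction. ITGA1 (ENSG00000213949; GRCh38 chromosome 5, 52787896 to 52959210), which prefers basement membrane collagen, stood at 129, 126 and 119 CPM in control and 292, 284 and 265 CPM in knockout replicates. ITGA2 (ENSG00000164171; chromosome 5, 52989326 to 53094779), which prefers fibrillar collagen, stood at 107, 100.1 and 89.9 CPM in control and 242, 227 and 209 CPM in knockout replicates. For both genes every knockout library lay far above every control library. ITGA1 rose 2.25-fold (log2 fold change 1.17, SE 0.06, adjusted p = 2.90e-06) and ITGA2 2.28-fold (1.19, SE 0.08, adjusted p = 1.38e-05). These genes are neighbours, 30116 bases apart, and the ratio of ITGA1 to ITGA2 per kb was 0.537 ± 0.0249 in control and 0.529 ± 0.0133 in knockout libraries (SD, n = 3). The first exons of ITGA1 share 475 bases with PELO on the same strand, 2.56% of its exonic length.

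ITGA11 and ITGA10 are the other collagen receptors. ITGA11 (ENSG00000137809; chromosome 15, 68296533 to 68432162), a receptor of mesenchymal cells, stood at 0.445, 0.189 and 0.222 CPM in control and 6.69, 5.22 and 5.05 CPM in knockout replicates. It rose 19.8-fold, from 14 to 32 counts a library to between 396 and 482 (log2 fold change 4.31, SE 0.26, adjusted p = 5.31e-06). ITGA10 (ENSG00000143127; chromosome 1, 145891208 to 145910189), best known from cartilage, went the other way, from 4.77, 5.14 and 4.75 CPM to 1.75, 1.68 and 2.27 CPM. It fell 2.57-fold (log2 fold change -1.36, SE 0.13, adjusted p = 1.01e-04). Summed per kb of exon, the 4 collagen receptor subunits stood at 20.03 ± 1.39 in control and 44.5 ± 2.81 CPM per kb in knockout libraries, of which ITGA2 was 62.5% and 64.2%.

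The laminin receptors were split. ITGA6 (ENSG00000091409; chromosome 2, 172427354 to 172506282), which pairs with ITGB1 or ITGB4, stood at 585, 547 and 488 CPM in control and 353, 333 and 293 CPM in knockout replicates. ITGA3 (ENSG00000005884; chromosome 17, 50055968 to 50090481) stood at 185, 184 and 159 CPM in control and 371, 354 and 324 CPM in knockout replicates. Neither gene had overlapping groups. ITGA6 fell 1.65-fold (log2 fold change -0.73, SE 0.09, adjusted p = 4.82e-04) and ITGA3 rose 1.99-fold (0.99, SE 0.08, adjusted p = 3.74e-05). ITGA7, the muscle laminin receptor, had overlapping groups at 3.23 ± 0.222 and 2.85 ± 0.263 CPM and did not pass (adjusted p = 0.296). Per kb, ITGA6 made up 81.7% ± 0.467 of the 3 laminin receptor subunits in control and 58.0% ± 0.659 in knockout libraries.

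Of the alpha subunits that bind the RGD motif, ITGA5 and ITGA8 rose and ITGAV did not pass. The fibronectin receptor ITGA5 (ENSG00000161638; chromosome 12, 54395261 to 54419460) stood at 93.6, 94.7 and 82.8 CPM in control and 156, 147 and 127 CPM in knockout replicates. It rose 1.59-fold with no overlap (log2 fold change 0.67, SE 0.09, adjusted p = 7.23e-04). ITGAV, the shared alpha subunit of several beta chains, stood at 148, 153 and 162 CPM in control and 157, 160.1 and 159.7 CPM in knockout replicates, where the groups overlap (log2 fold change 0.04, SE 0.06, adjusted p = 0.644). ITGA8, a receptor for nephronectin, had 1, 5 and 6 counts in control and 53, 46 and 55 counts in knockout replicates. ITGA8 rose (log2 fold change 3.58, SE 0.42, adjusted p = 2.81e-04) but stayed below 1 CPM.

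ITGA9 had the largest decrease of the 38 tested genes. ITGA9 (ENSG00000144668; chromosome 3, 37452115 to 37823514), a receptor for tenascin C and VCAM1 among others, stood at 12.6, 11.6 and 9.88 CPM in control and 0.194, 0.332 and 0.357 CPM in knockout replicates. It fell 38.7-fold (log2 fold change -5.25, SE 0.19, adjusted p = 3.27e-07). Its antisense gene ITGA9-AS1, which shares 6.46% of its exonic length, had means of 0.247 CPM (control) and 0.167 CPM (knockout) and missed the threshold (adjusted p = 0.316). ITGA4, the closest relative of ITGA9 in the family and a receptor for VCAM1, fell by less. It stood at 82.7, 79.2 and 77.0 CPM in control and 63.8, 67.1 and 60.8 CPM in knockout replicates (log2 fold change -0.32, SE 0.06, adjusted p = 0.00585). Per kb, ITGA9 stood at 0.136 ± 0.0121 of the ITGA4 level in control and at 0.00441 ± 0.00137 in knockout libraries.

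Among the beta subunits, ITGB1, ITGB4 and ITGB5 rose, ITGB2, ITGB3 and ITGB8 fell and ITGB7 did not pass. Of all tested genes, 14.0% were called in each direction. ITGB1 (ENSG00000150093; chromosome 10, 32900319 to 33005792), the partner of all 12 alpha subunits listed here, stood at 597, 601 and 600.3 CPM in control and 811, 837 and 829 CPM in knockout replicates. It rose 1.38-fold (log2 fold change 0.46, SE 0.05, adjusted p = 2.52e-04), a small change with a narrow spread in both groups. ITGB3 (ENSG00000259207; chromosome 17, 47253846 to 47311816), the beta chain of the vitronectin receptor, stood at 80.9, 71.9 and 64.4 CPM in control and 13.7, 13.8 and 11.3 CPM in knockout replicates. It fell 5.61-fold, and its highest knockout library was far below its lowest control library (log2 fold change -2.49, SE 0.11, adjusted p = 9.85e-07). A second gene model on the same strand, AC068234.1, covers 51.6% of the exonic length of ITGB3 and has no counts in any library; whether reads in the shared stretch were left out of ITGB3 was not tested.

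ITGB8, a chain that with ITGAV activates latent TGF-beta, stood at 159, 151 and 134 CPM in control and 90.1, 83.0 and 71.4 CPM in knockout replicates (log2 fold change -0.86, SE 0.10, adjusted p = 2.81e-04). ITGB5, a further partner of ITGAV, stood at 123, 119.6 and 111 CPM in control and 145, 143 and 129 CPM in knockout replicates. Its increase was small and without overlap, and the call was lost when some single libraries were left out (log2 fold change 0.24, SE 0.07, adjusted p = 0.0338). Over the 13 alternative fits its log2 fold change ranged from 0.196 to 0.287. Without control replicate 2 or 3 the adjusted p of ITGB5 was 0.109 or 0.0662, and without knockout replicate 1 or 2 it was 0.0901 or 0.133. Of the 4 beta chains of ITGAV other than ITGB1, ITGB3 held 36.9% ± 1.29 of the summed CPM per kb in control and 9.81% ± 0.416 in knockout libraries. The share of ITGB5 was 41.2% ± 1.32 and 72.2% ± 1.05, with ITGAV itself not called. These shares take ITGB3 over its full exonic length, including the stretch that AC068234.1 covers. ITGB6, the epithelial chain of that set, had between 0 and 11 counts per library and was not tested.

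ITGB4, which pairs with ITGA6 in hemidesmosomes, stood at 7.39, 5.85 and 5.57 CPM in control and 16.0, 15.5 and 13.5 CPM in knockout replicates. It rose 2.39-fold (log2 fold change 1.26, SE 0.12, adjusted p = 9.42e-05) while its partner ITGA6 fell. The ratio of ITGB4 to ITGA6 per kb was 0.0112 ± 0.000949 in control and 0.0444 ± 0.000541 in knockout libraries. ITGB2, the leukocyte beta chain, stood at 1.18, 1.31 and 1.51 CPM in control and 0.680, 0.574 and 0.523 CPM in knockout replicates (log2 fold change -1.17, SE 0.19, adjusted p = 0.00184). The antisense gene ITGB2-AS1 fell from 0.647 to 0.214 CPM (adjusted p = 0.00169), and without a stated strand setting the reads of this pair cannot be told apart. ITGB7, another leukocyte chain, stood at 0.224 ± 0.0530 and 0.390 ± 0.132 CPM (adjusted p = 0.126), and 42.1% of its exonic length is shared with ZNF740 on the opposite strand.

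**Figure D2:**
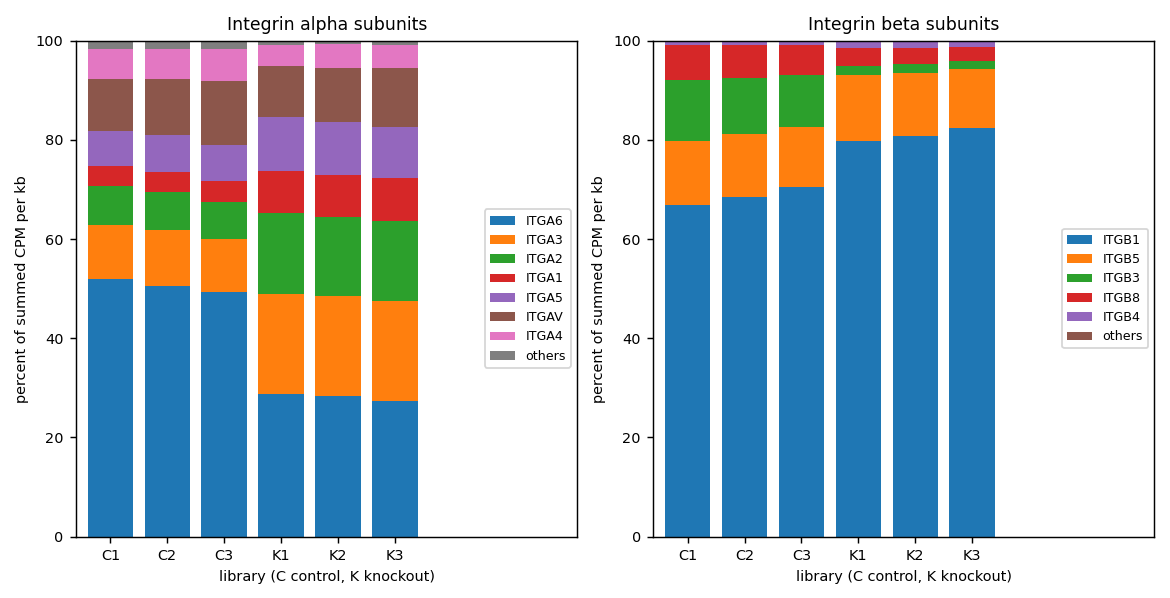
Share of each integrin subunit in the summed CPM per kb of exon of the 12 alpha (left) and 8 beta (right) subunits, with a stacked bar for each control (C) and knockout (K) library. ITGA6 takes 50.6% of the alpha sum in control and 28.2% in knockout libraries, and ITGB1 68.6% and 81.0% of the beta sum.

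The order of the subunits per kb of exon differed between the groups. In control libraries ITGA6 led the alpha subunits at 82.6 ± 7.50 CPM per kb, followed by ITGAV (18.8 ± 0.894) and ITGA3 (17.9 ± 1.52), whose ranges overlap, then ITGA2 and ITGA5, whose ranges overlap too. In knockout libraries ITGA6 led per kb at 50.0 ± 4.66, though not by CPM without length (326 against 349 for ITGA3), followed without overlap by ITGA3 (35.7 ± 2.40) and ITGA2 (28.6 ± 2.06). ITGAV (19.3 ± 0.230) and ITGA5 (18.9 ± 1.97) came next with overlapping ranges, ahead of ITGA1 (15.1 ± 0.728). ITGA9 ranked eighth of the alpha subunits in control and last in knockout libraries. Of the alpha sum per kb, collagen receptors held 12.3% ± 0.0632 in control and 25.1% ± 0.243 in knockout libraries. Laminin receptors held 61.9% ± 1.44 and 48.6% ± 0.750, and RGD receptors 18.9% ± 1.34 and 21.7% ± 0.457, all given as descriptions with no test. Without division by exon length, RGD receptors held 19.1% ± 1.33 in control and 19.4% ± 0.387 in knockout libraries, with overlapping ranges. Collagen receptors then held 17.8% and 33.0%, and laminin receptors 56.0% and 43.5%. For the beta chains the control order was ITGB1 (99.7 ± 0.388 CPM per kb), ITGB5 (18.3 ± 0.922) and ITGB3 (16.5 ± 1.88), the last 2 with overlapping ranges, then ITGB8 (9.75 ± 0.851). In knockout libraries ITGB1 stood at 137 ± 2.22, ITGB5 at 21.6 ± 1.30, ITGB8 at 5.38 ± 0.621 and ITGB3 at 2.94 ± 0.326 CPM per kb, all separate. The ITGB3 level was divided by its full exonic length, of which AC068234.1 covers 51.6%. Whether this lowered the ITGB3 level, and so its place in either order and the beta shares, was not tested.

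Of the 19 cytoplasmic genes, 7 rose, 1 fell and 11 did not pass, against 14.0% of all tested genes called in each direction. VCL (ENSG00000035403; chromosome 10, 73995193 to 74121363), the gene of vinculin, which binds talin and actin under tension, stood at 162, 151 and 138 CPM in control and 329, 319 and 292 CPM in knockout replicates. It rose 2.08-fold (log2 fold change 1.06, SE 0.08, adjusted p = 1.88e-05), and it was the only cytoplasmic gene of the 19 called with a change of at least 2-fold. The gene AP3M1 on the opposite strand overlaps 11.1% of its exonic length and did not pass (adjusted p = 0.433). The LIM protein gene ZYX (zyxin) stood at 62.0, 66.4 and 59.6 CPM in control and 86.8, 81.2 and 76.8 CPM in knockout replicates (log2 fold change 0.38, SE 0.07, adjusted p = 0.00415). FLNA, the gene of the actin crosslinker filamin A, stood at 996, 913 and 756 CPM in control and 997, 866 and 763 CPM in knockout replicates. Its groups cover almost the same range (log2 fold change -0.02, SE 0.12, adjusted p = 0.924).

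The activators of the beta tail differed within each family. TLN1, the main talin, stood at 277, 244 and 189 CPM in control and 242, 199.5 and 180.2 CPM in knockout replicates, overlapping and wide within both groups (log2 fold change -0.19, SE 0.15, adjusted p = 0.407). With the replicate number as a block, TLN1 was called lower (log2 fold change -0.19, adjusted p = 4.34e-05). Whether libraries of the same number share a batch was not tested. TLN2 stood at 13.4, 11.2 and 10.1 CPM in control and 19.3, 18.4 and 15.9 CPM in knockout replicates and rose 1.55-fold (log2 fold change 0.63, SE 0.12, adjusted p = 0.00458). Per kb TLN1 held 97.0% ± 0.221 of the talin sum in control and 94.9% ± 0.356 in knockout libraries. The kindlin gene FERMT1, known from epithelia, stood at 73.2, 70.1 and 63.0 CPM in control and 116, 111 and 97.0 CPM in knockout replicates. It rose 1.57-fold (log2 fold change 0.65, SE 0.09, adjusted p = 6.67e-04). FERMT2, the widely expressed kindlin, stood at 69.9 ± 3.04 and 75.8 ± 3.43 CPM (adjusted p = 0.231). FERMT3, the kindlin of blood cells, had between 3 and 16 counts per library (adjusted p = 0.150).

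The kinase and scaffold genes PTK2 (FAK) and PXN (paxillin) did not pass. PTK2 stood at 134, 131 and 132 CPM in control and 138 CPM in each knockout replicate, without overlap but by a small amount (log2 fold change 0.06, SE 0.05, adjusted p = 0.440). PXN stood at 213 ± 20.5 and 219 ± 20.7 CPM (adjusted p = 0.819). BCAR1, the gene of the p130Cas scaffold that FAK and SRC phosphorylate, stood at 32.5, 32.2 and 30.4 CPM in control and 44.1, 41.6 and 39.1 CPM in knockout replicates. It rose 1.31-fold (log2 fold change 0.39, SE 0.07, adjusted p = 0.00287).

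Of the 5 ILK, PINCH and parvin genes, LIMS2 alone passed, at low counts, against 28.0% of all tested genes called in either direction. PARVA stood at 92.5 ± 2.88 and 93.1 ± 5.12 CPM (adjusted p = 0.941), PARVB at 21.4 ± 1.02 and 21.1 ± 0.189 CPM (adjusted p = 0.879), and the PINCH gene LIMS1 at 79.2 ± 3.50 and 73.3 ± 2.43 CPM (adjusted p = 0.235). LIMS1 has close copies elsewhere in the genome with which reads may be shared. LIMS2, the second PINCH gene, stood at 0.417, 0.377 and 0.319 CPM in control and 0.625, 0.945 and 0.599 CPM in knockout replicates (log2 fold change 0.96, SE 0.26, adjusted p = 0.0262). Its call was lost without control replicate 2 (adjusted p = 0.0802), control replicate 3 (0.0623) or knockout replicate 2 (0.105), and the gene GPR17, which overlaps it on the opposite strand, rose as well (0.306 to 0.968 CPM, adjusted p = 0.0121). ILK, the central protein of this complex and present in most cell types, had between 9 and 27 counts per library. TAF10 on the opposite strand overlaps 68.1% of its exonic length and itself had means of 2.60 CPM (control) and 2.46 CPM (knockout). How far this overlap lowered the ILK count was not tested, so the value is not read as the level of ILK (log2 fold change 0.55, SE 0.36, adjusted p = 0.309).

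Tensins, which bind beta tails and actin in mature adhesions, went different ways. TNS3 stood at 113, 101 and 90.0 CPM in control and 72.2, 65.1 and 57.2 CPM in knockout replicates and fell 1.56-fold, the only decrease called among the 19 cytoplasmic genes (log2 fold change -0.64, SE 0.11, adjusted p = 0.00231). TNS1 stood at 2.26, 1.78 and 1.52 CPM in control and 4.01, 3.47 and 3.43 CPM in knockout replicates and rose 1.96-fold (log2 fold change 0.97, SE 0.16, adjusted p = 0.00205). TNS2 stood at 26.3 ± 2.65 and 24.6 ± 2.22 CPM with overlapping groups (adjusted p = 0.512). Per kb TNS3 held most of the tensin sum in both groups, 71.8% ± 0.505 in control and 62.7% ± 0.701 in knockout libraries.

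**Figure D3:**
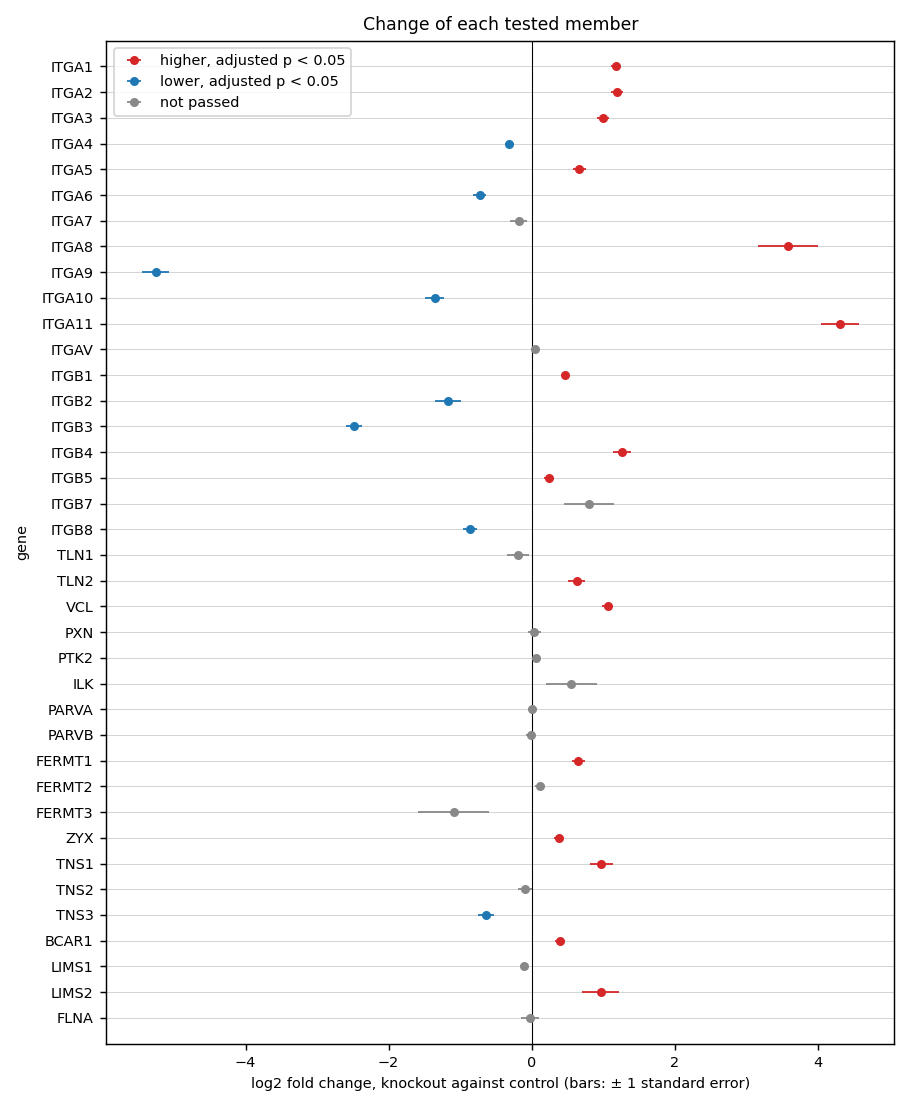
Log2 fold change of knockout against control for the 38 tested genes, with bars of 1 standard error, coloured by the edgeR call at an adjusted p of 0.05. ITGA11 (4.31) and ITGA9 (-5.25) are the extremes, and of the 19 cytoplasmic genes 7 were higher, 1 was lower and 11 did not pass.

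Other genes of the pathway were counted in lists that leave out the 39. Of 5 tested further members of the integrin, tensin and parvin families, 3 rose and 0 fell, against 14.0% of all genes in each direction (median 1.48, against -0.02 over all genes). All 3 stayed below 2 CPM. The leukocyte subunit gene ITGAD had 1, 2 and 0 counts in control and 81, 70 and 109 counts in knockout replicates (adjusted p = 2.48e-05). ITGAX, another leukocyte subunit, stood at 0.544 ± 0.0659 and 1.52 ± 0.204 CPM (adjusted p = 4.56e-04), and TNS4 at 0.0951 ± 0.0937 and 0.973 ± 0.365 CPM (adjusted p = 0.00216). Of 8 leukocyte markers, 3 were tested, of which LYZ and CORO1A fell and 0 rose. Their summed level was 14.2 to 18.3 CPM in control and 4.40 to 4.78 CPM in knockout libraries, and 5 of the 8, PTPRC and CD3E among them, had means under 0.07 CPM. Their part in the increase of ITGAD and ITGAX was not tested.

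Of 27 tested adhesion kinases and adaptors, 2 rose and 10 fell, against 14.0% of all tested genes in each direction (median -0.15). NEDD9, a scaffold related to BCAR1 that is linked to melanoma invasion, had 24.8 ± 1.14 CPM in control and fell 9.78-fold to 2.54 ± 0.418 CPM (adjusted p = 3.22e-07). The kinase gene SRC fell from 50.9 ± 1.13 to 27.5 ± 2.53 CPM (adjusted p = 4.85e-05) and its relative FYN from 32.0 ± 1.23 to 17.2 ± 0.902 CPM (adjusted p = 2.13e-05). ARHGAP26, a GTPase-activating protein that binds FAK, rose from 25.9 ± 2.09 to 63.0 ± 5.99 CPM (adjusted p = 1.40e-05), and CASS4, another relative of BCAR1, rose from 2 to 4 counts a library to between 11 and 27 (adjusted p = 0.00842). Without control replicate 2 or without knockout replicate 2, 6 genes of this list were lower, and with the replicate number as a block 6 were higher.

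Among 25 actin linkers and LIM proteins of adhesions, 11 rose and 6 fell, against 14.0% of all tested genes in each direction (median 0.10). The LIM-only protein genes FHL1 and FHL2 rose, FHL1 from 8.41 ± 0.182 to 25.1 ± 0.733 CPM (adjusted p = 6.39e-07) and FHL2 from 31.2 ± 1.45 to 62.5 ± 3.28 CPM (adjusted p = 1.03e-05). PALLD, the gene of the actin-bundling palladin, rose from 29.8 ± 1.47 to 61.9 ± 2.49 CPM (adjusted p = 6.35e-06). The actin-elongating proteins of the same family ENAH, from 378 ± 31.2 to 297 ± 20.2 CPM, and EVL, from 5.00 ± 0.441 to 3.57 ± 0.253 CPM, fell (adjusted p = 0.0125 and 0.0101). The number that fell was 3 without control replicate 1 and 2 without control replicate 2 or knockout replicate 2.

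Of 23 tested regulators of integrin activation and traffic, 4 rose and 5 fell, against 14.0% of all tested genes called in each direction (median 0.10). CAV1, the gene of caveolin-1, rose from 509 ± 10.7 to 790.3 ± 8.19 CPM (adjusted p = 4.18e-05). CIB1, which binds integrin alpha tails, rose from 26.7 ± 2.83 to 35.7 ± 2.40 CPM (adjusted p = 0.00919), and NUMB, an endocytic adaptor, from 39.2 ± 1.72 to 46.3 ± 1.76 CPM (adjusted p = 0.0224). KANK1, a talin-binding protein at the rim of adhesions, fell from 77.8 ± 6.69 to 36.3 ± 3.51 CPM (adjusted p = 4.44e-05), the adaptor gene DOK1 from 5.91 ± 0.379 to 3.31 ± 0.183 CPM (adjusted p = 2.74e-04) and SLC3A2, the CD98 heavy chain that binds beta tails, from 270.0 ± 8.39 to 196 ± 5.66 CPM (adjusted p = 4.17e-04). The number that rose was 1 without control replicate 2 and 2 without knockout replicate 2.

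Ligand genes were followed beside their receptors. Of 16 tested collagen chains 8 rose and 5 fell, against 14.0% of all tested genes in each direction (median 0.31). Without knockout replicate 2, 3 fell. COL5A1, a fibrillar chain, rose from 13.9 ± 2.59 to 62.8 ± 9.50 CPM (adjusted p = 1.50e-05), and the basement membrane chains COL4A5 and COL4A6 from 2.95 ± 0.484 to 10.9 ± 0.928 CPM and from 0.426 ± 0.0443 to 4.27 ± 0.231 CPM (adjusted p = 1.18e-05 and 6.70e-07). COL9A3 fell from 57.7 ± 3.41 to 17.1 ± 0.615 CPM, COL9A2 from 1.88 ± 0.374 to 0.196 ± 0.0530 CPM and COL16A1 from 9.43 ± 2.27 to 4.80 ± 0.716 CPM (adjusted p = 5.20e-07, 2.88e-05 and 0.00427). COL4A2 fell from 260 ± 41.5 to 179 ± 20.2 CPM and COL5A2 from 174 ± 32.5 to 113 ± 14.3 CPM (adjusted p = 0.0126 and 0.0121). The summed level of the collagen list was 654 to 888 CPM in control and 567 to 713 CPM in knockout libraries, with overlapping ranges.

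Of 13 tested laminin chains and basement membrane partners 6 rose and 0 fell, against 14.0% of all tested genes in each direction, with a median of 0.04. LAMA1 rose from 1.25 ± 0.365 to 10.1 ± 1.74 CPM (adjusted p = 1.27e-05), LAMB3, a chain of laminin-332, from 11.2 ± 1.17 to 23.2 ± 2.05 CPM (adjusted p = 8.31e-05) and the nidogen gene NID2 from 0.679 ± 0.119 to 4.08 ± 0.993 CPM (adjusted p = 5.40e-05). Without control replicate 3 the median was -0.06 and 2 genes were lower, and without knockout replicate 1 a single gene was lower.

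Of 21 tested ligands with an RGD or LDV motif or a like role, 12 rose, against 14.0% of all tested genes, and 3 fell, a share near the 14.0% lower over all tested genes (median 0.49). TGFBI rose from 127 ± 6.31 to 347 ± 13.6 CPM, CCN1 from 104 ± 2.12 to 208 ± 8.59 CPM and SPP1, the gene of osteopontin, from 11.5 ± 1.76 to 44.9 ± 5.39 CPM (adjusted p = 8.88e-07, 4.12e-06 and 8.95e-06). TNC, the gene of tenascin C, which ITGA9 binds, fell from 569 ± 86.9 to 252 ± 33.6 CPM (adjusted p = 2.23e-04). ADAM23, whose protein binds the alphaV beta3 integrin, fell from 38.8 ± 2.51 to 7.14 ± 0.785 CPM (adjusted p = 4.97e-07), and TGFB3 from 2.83 ± 0.240 to 1.63 ± 0.271 CPM (adjusted p = 0.00468).

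**Figure D4:**
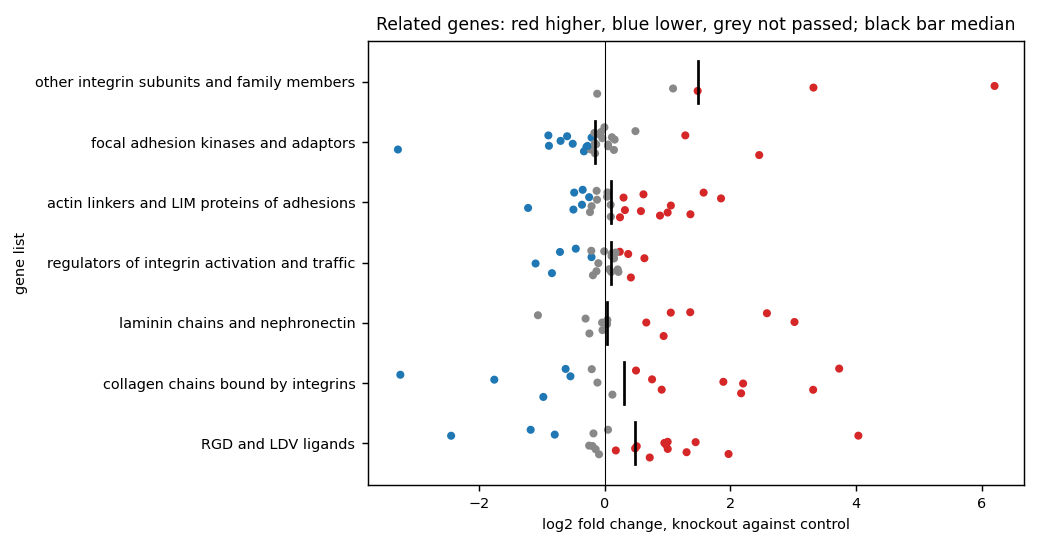
Log2 fold change of each tested gene in 7 lists of related genes, coloured by call, with a black bar at the list's median. The adhesion kinase list has 10 genes lower and 2 higher, and the ligand list at the bottom 12 higher and 3 lower.

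Markers of other cell types were read in the same libraries. Of 8 fibroblast markers, 6 rose and 0 fell, against 14.0% of all tested genes in each direction, and their summed level was 15.0 to 18.5 CPM in control and 24.9 to 27.6 CPM in knockout libraries; their part in the increase of ITGA11 and of the collagen chains was not tested. COL1A1, COL1A2 and COL3A1 stand in both that list and that of collagens. Keratinocyte and epithelial markers summed to 48.3 to 64.4 CPM and 52.5 to 66.9 CPM, mostly KRT10, with KRT1 at 0 counts and CDH1, TP63 and DSG3 under 0.08 CPM. KRT5 rose from 0.110 to 0.788 CPM and EPCAM from 0.0872 to 0.260 CPM, the same direction as ITGB4 and FERMT1, and KRT14 fell from 7.15 to 0.249 CPM. The part of these markers in the increase of ITGB4 and FERMT1 was not tested. Endothelial markers summed to 7.94 to 10.2 CPM and 4.50 to 5.29 CPM; PECAM1 and CDH5 rose and KDR fell, with VWF and CLDN5 under 0.14 CPM. The summed level of the leukocyte markers, nearly all of it LYZ and CORO1A, went down in the same libraries as ITGB2, and its part in the fall of ITGB2 was not tested. Platelet markers summed to 0.580 to 0.778 CPM and 0.574 to 0.972 CPM, with PF4, PPBP and GP9 at 0 counts. The mitochondrial share of counts ranged from 0.526% to 0.791% (control) and from 0.566% to 0.870% (knockout).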

How the data were processed

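The deposited values are unnormalized read counts for each gene in 6 libraries, made with a stranded mRNA kit per the labels' protocols. HISAT2, HTSeq and the build hg38 are named in the submitters' processing notes; the sources used here give no annotation release and no strand setting of the count step. All 58721 identifiers matched GENCODE 29, which gave coordinates and exon lengths on GRCh38, and symbols came from a table of current names.

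Counts were filtered with filterByExpr and tested in edgeR 4.0.16 (R 4.3.3) with TMM scaling and the quasi-likelihood test, two-sided, knockout against control, no covariates, adjusted over 19263 genes, threshold 0.05. CPM use TMM-scaled totals, and values are means ± SD over n = 3 libraries. CPM per kb divides by the union of a gene's exons. No libraries of 1 group were duplicates: counts differed with a chi-square per degree of freedom of 13.3 to 74.2. Alternatives were DESeq2 1.42.0, limma-voom (limma 3.58.1), other scaling and filters, the replicate number as a block, and leaving out each library. The test was checked on simulated counts of 19263 genes. It called 53.7% of the 1.5-fold changes, 82.1% of the 2-fold and 98.4% of the 4-fold changes in the right direction. Of all 164 calls 11 were false.

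All 39 genes are accounted for; of each related list up to 3 genes in each direction with the smallest p past the threshold are named, except that some results are not reported here. Further genes are named as markers, as overlapping neighbours or beside a result, chosen after their values were seen where no list holds them. The genes and lists were chosen with earlier results of these data known. Figures were drawn in matplotlib 3.10.9.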

Additional observations from a re-analysis of the deposited data

How the results depend on the processing

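Of the 24 called genes, 22 kept direction and call in each of the alternative fits that tested them, the exceptions being ITGB5 and LIMS2 when single libraries were left out. Leaving out each library in turn gave 14 to 16 higher and 8 lower. Requiring at least 1 CPM in 3 libraries gave 14 higher and 8 lower, with ITGA8, LIMS2, ITGB7, ILK and FERMT3 untested. Over all genes, leaving out each library gave 1986 to 2935 higher and 1794 to 2958 lower. The replicate numbers of the labels were also used as a block. Deviations from the group mean correlated at 0.261, -0.004 and 0.268 between the control and knockout libraries numbered 1, 2 and 3. They correlated at -0.242 between control replicate 1 and knockout replicate 3, and at -0.288 between control replicate 3 and knockout replicate 1. The remaining crossed pairs lay between -0.046 and 0.048, and control replicate 2 did not correlate best with its own number. Whether libraries of the same number share a batch was not tested. With the replicate block 4637 genes were higher and 5176 lower, and 17 and 10 of the 38; TLN1 (adjusted p = 4.34e-05), FERMT2 (0.00446) and LIMS1 (0.00486) then passed, and SOX10 kept its call. Among the related lists, the block gave 6 higher adhesion kinases and adaptors, 10 lower actin linkers, 11 higher and 9 lower activation regulators, 2 lower laminin chains and 6 lower RGD and LDV ligands. With at least 1 CPM in 3 libraries, 1 further family member and 1 kinase or adaptor were higher, and the median was 0.70 for the family list, 0.37 for laminins and 0.02 for collagens. With no filter on low counts the median was 0.32 for the family list and 0.04 for regulators. Without division by exon length, ITGA6 held 42.0% of the alpha sum in control and 20.9% in knockout libraries, and ITGB3 21.4% and 5.52% of the alphaV partners. Some orders then turned: ITGA3 led in knockout libraries with 22.4% of the alpha sum, and in control libraries ITGB8 (15.6% of the beta sum) stood ahead of ITGB5 (12.5%) and ITGB3 (7.64%). Counts of 0 to 16 per library, as for ITGA8 in control, ITGB6 and FERMT3, limit what can be seen for those genes.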
